A study of Homo sapiens with 2 samples.

Results

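The HOX genes are the 39 human genes whose symbols are HOXA, HOXB, HOXC or HOXD followed by a number, taken by symbol from the 36601 genes of the deposited count matrix. There are 11 HOXA genes on chromosome 7, 10 HOXB genes on chromosome 17, 9 HOXC genes on chromosome 12 and 9 HOXD genes on chromosome 2. They were measured in 1 pool of cardiomyocytes made from H9 cells, a human embryonic stem cell line that here carries the fluorescent calcium reporter gCaMP6f. The cells were at day 15 of differentiation when frozen, and after thawing each stained sample received its own antibody-borne barcode (a hashtag, 13 in the matrix) before all were pooled and captured with 10x Genomics reagents. The labels do not say what each hashtag marks, so hashtags are described one by one and never grouped, and the pool has no replicates: no test was made.

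HOX genes encode homeodomain transcription factors. Their order along each chromosomal cluster matches the order in which they are switched on along the head-to-tail axis of the embryo, and the genes at the same place in different clusters form a paralog group. In the embryo, genes of the first paralog groups mark the hindbrain and the mesoderm beside it, including progenitors of the back of the heart field that form atria, sinus venosus and outflow tract, and retinoic acid is known to induce them. Genes of the middle groups mark trunk tissue, and those of the last groups mark the tail, the limbs and the hindgut. HOX proteins bind DNA together with TALE homeodomain proteins of the PBX, MEIS and PKNOX families.

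After filtering, 20634 cells with 1000 to 115854 unique molecular identifiers (UMIs, counted RNA molecules) and a median of 11991 were analysed. Of them 10001 (48.5%) could be given to 1 hashtag. Levels are UMIs summed over a group of cells and given as CPM, the count scaled to a fixed total of all UMIs of that group as is usual in RNA sequencing. Since these values are not scaled by transcript length, levels are compared between groups of cells and not between genes. The 95% intervals were computed exactly (Poisson for levels, conditional binomial for ratios, Clopper-Pearson for shares) and hold counting error alone, since cells of 1 pool are not replicates. HOX genes and the genes of the TALE, retinoid, chromatin, non-coding and related lists were kept out of the genes used for clustering.

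The upstream sequences of 2 genes are shown because these genes mark differences within the cardiomyocytes: HOXB1 in a cluster of 189 cells, and HOXA4 in one of 2461 cells. Both come from RefSeq (GRCh38.p14), whose promoter table matched 20 of the 39 genes, and both are on the minus strand and are written 5′ to 3′ toward the start site. The HOXB1 stretch (chr17:48531012-48531261) holds the 250 bases before the annotated start, with no annotated exon. The HOXA4 stretch (chr7:27130800-27131007) holds bases 250 to 43 before the start, where the bases nearer to it, which are annotated as exon, are left out.
HOXB1: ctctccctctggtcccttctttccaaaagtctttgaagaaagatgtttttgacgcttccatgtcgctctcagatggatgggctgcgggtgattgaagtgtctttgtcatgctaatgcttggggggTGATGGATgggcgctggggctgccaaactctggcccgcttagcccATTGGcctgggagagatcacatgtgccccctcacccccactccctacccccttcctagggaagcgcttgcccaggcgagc
HOXA4: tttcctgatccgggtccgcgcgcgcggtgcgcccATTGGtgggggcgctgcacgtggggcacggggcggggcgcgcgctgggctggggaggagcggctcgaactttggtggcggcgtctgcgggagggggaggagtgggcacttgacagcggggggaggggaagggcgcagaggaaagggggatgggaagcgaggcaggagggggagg
Capitals mark matches to the motifs searched on both strands. In HOXB1 the first run in capitals, 125 to 118 bases before the start, matches TGATNNAT, the kind of site that HOX and PBX proteins bind together in published work on this gene's own upstream region. The second, 80 to 76 bases before it, is CCAAT on the other strand, and so is the HOXA4 run at 216 to 212 bases. Neither stretch held AGGTCA (the core of a retinoic acid receptor site) or TATAAA. Of 34788 windows over all genes, each with 250 upstream bases, 6.49% held TGATNNAT, 12% AGGTCA, 10.8% TATAAA and 32.0% CCAAT. A match is only a match of letters.

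The HOX RNA of the preparation came almost all from the front part of the HOXB cluster. Of 17192 HOX UMIs, 94.8% were from HOXB, 4.09% from HOXA, 0.971% from HOXC and 0.122% from HOXD. HOXB2, HOXB3 and HOXB4 together gave 86.6%, and HOXB2 (chromosome 17, 48540894 to 48544989) alone gave 52.8%. Genes of paralog groups 9 to 13 gave 0.320%. The annotated span of HOXB3 (48548870 to 48604912) holds the genes HOXB4 (48575513 to 48580111) and HOXB5 (48591257 to 48593961) on the same strand. Some reads could therefore fit more than 1 of these 3 genes, and their separate levels are uncertain to that extent.

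A gene was called detected in a class of cells when the lower bound of its level was over 1 CPM and, outside cardiomyocytes, over an allowance for free RNA. That allowance was 21.8% of the gene's level over all cells, the median share of the level of 12 cardiomyocyte marker genes that remained in the other classes. By this rule 13 genes were detected somewhere, among them HOXA3, HOXA4, HOXB1 to HOXB7, HOXC4, HOXC5 and HOXD8. None of groups 9 to 13 was. The 26 others were counted in the whole pool as follows. HOXA2 had 66 UMIs, HOXA5 had 36, HOXB8 had 22 and HOXA13 had 19. HOXC13 had 9, and HOXB9, HOXC6 and HOXC8 had 8 each. HOXA7 had 5 and HOXA10, HOXA11 and HOXB13 had 4 each. HOXC9, HOXD1 and HOXD9 had 2 each, and HOXA9, HOXD10 and HOXD13 had 1 each. Another 8 (HOXA6, HOXC10, HOXC11, HOXC12, HOXD3, HOXD4, HOXD11 and HOXD12) had 0 UMIs, which allows up to 0.0125 CPM in cardiomyocyte-like cells (3 counts of their total) and up to 4.34 CPM in the smallest class.

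Cells fell into 7 classes and a cluster of 1553 cells of low depth that was left out. Each named class held the highest summed level of its own marker list among the classes, apart from the epithelial-like class, whose list summed to 5476 CPM there and to 8575 CPM in the epicardial-like class. One class is called LMO2/MECOM after its leading genes. Total UMIs per class ran from 691477 in 68 endothelial-like cells to 240268129 in 15954 cardiomyocyte-like cells, so small levels are least certain in the endothelial-like class.

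The HOX RNA of cardiomyocyte-like cells was mostly of the front groups. In 15954 of these cells (77.3% of all) summed HOX was 53.2 CPM (52.3 to 54.1), and 98.0% of it came from paralog groups 1 to 4. The 4 genes detected were HOXB1 at 2.30 CPM, HOXB2 at 30.6 CPM, HOXB3 at 9.42 CPM and HOXB4 at 8.13 CPM. A cluster of 189 cells held 61.3% of the HOXB1 UMIs, and outside it HOXB1 was at 0.897 CPM, under the limit. Other classes are compared below with the 2.30 CPM that includes this cluster. For HOXB1, stromal-like (1.35 CPM), epithelial-like (1.72 CPM) and endoderm-like cells (1.31 CPM) were above 0.897 CPM. They were called lower than cardiomyocyte-like cells only under a second scaling given below. Epicardial-like cells (0.596 CPM), called lower under both scalings, were under 0.897 CPM. HOXA3 (0.391 CPM) and HOXA4 (0.370 CPM) stayed under the limit over the class as a whole. HOXB5 had 135 UMIs, 0.562 CPM (0.471 to 0.665). Groups 5 to 8 made up 1.88% of the class's HOX UMIs, and groups 9 to 13 made up 0.102%.

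**Figure D1:**
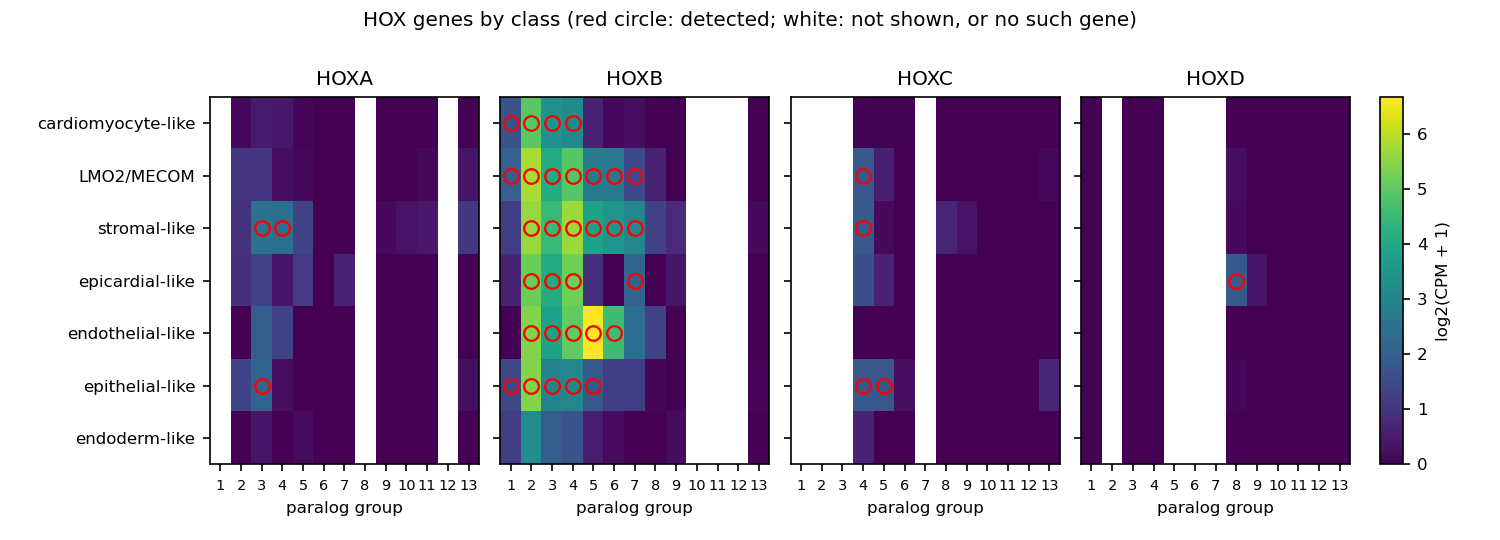
Level of HOX genes in the 7 classes (rows) by chromosomal cluster and paralog group (columns), as log2(CPM + 1), with a red circle where the gene was detected. HOXB2 to HOXB4 are circled in all classes but endoderm-like, and nothing is circled to the right of group 8.

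Stromal-like cells held middle group HOXB genes beside the front ones. This class, led by COL1A2 and COL3A1 (fibrillar collagens) and by STMN2, had 798 cells, summed HOX of 174 CPM (165 to 183) and 9 detected genes. HOXB4 stood at 49.9 CPM, against 8.13 CPM in cardiomyocyte-like cells (6.14-fold higher, 5.50 to 6.84). The middle group genes, which pattern the trunk, were HOXB5 at 13.2 CPM (23.4-fold, 18.0 to 30.4), HOXB6 at 10.1 CPM (105-fold, 65.6 to 175) and HOXB7 at 7.37 CPM (39.4-fold, 26.3 to 59.3). Stromal-like cells also held HOXA3 at 4.67 CPM (38 UMIs) and HOXA4 at 4.30 CPM (35 UMIs), 11.9-fold and 11.6-fold above cardiomyocyte-like cells, and HOXC4 at 2.70 CPM (22 UMIs). HOXB2 (49.3 CPM) and HOXB3 (22.1 CPM) were 1.61-fold and 2.35-fold higher. Groups 5 to 8 gave 19.9% of the class's HOX UMIs.

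In each comparison a gene counted as measured with 10 or more counts and 2 or more CPM on the side where it was higher, and as called from a ratio of 1.5 whose interval left out 1. Of 10 HOX genes measured in stromal-like against cardiomyocyte-like cells, 9 were higher and 0 lower, with a median ratio of 11.8. Over all 13537 genes measured there, 28.1% were called higher and 12.4% lower, with a median ratio of 1.15. A second scaling by trimmed means (TMM), which takes most genes as equal on both sides, shifted every comparison downward: here it gave 16.4% higher and 25.4% lower. With it 8 of the 9 HOX genes kept the call, HOXB2 did not (1.26-fold), and HOXB1 (0.460-fold) was called lower. Cardiomyocyte markers in stromal-like cells stood at 17747 CPM, 32.1% by median of their cardiomyocyte-like level; their part in the HOX levels was not tested.

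LMO2/MECOM cells also held middle HOXB genes, most of them in 1 sub-cluster. This class of 876 cells is led by PLAT, MECOM, LMO2, COL3A1, ISL1 and FOXC1, and had summed HOX of 125 CPM (118 to 132) with 8 genes detected. HOXB2 was at 55.4 CPM (1.81-fold above cardiomyocyte-like cells, 1.66 to 1.97), HOXB3 at 16.2 CPM (1.72-fold) and HOXB4 at 29.4 CPM (3.62-fold, 3.20 to 4.09). HOXB5 was at 5.89 CPM (10.5-fold), HOXB6 at 5.40 CPM (56.4-fold) and HOXC4 at 2.65 CPM (63.7-fold). Sub-cluster 3 of the class, 96 of its 876 cells, held 34 of the 60 HOXB5 UMIs, 34 of the 55 HOXB6 UMIs and 89 of the 147 UMIs of groups 5 to 8, and sub-clusters 5, 6 and 7 held 0 of these. HOXB1, at 3.14 CPM, and HOXB7, at 1.77 CPM, were detected without a call. Here 6 of 7 HOX genes measured were higher and 0 lower (median ratio 3.62), where 27.5% of 13391 genes were higher and 12.4% lower (median 1.17). With TMM scaling (14.5% of genes higher, 24.2% lower) 4 of the 6 kept the call, and HOXB2 (1.41-fold) and HOXB3 (1.34-fold) did not.

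Endothelial-like cells were high in HOXB5. In 68 cells led by ESM1, SOX17, EMCN and PLVAP, genes of vessel lining, HOXB5 stood at 101 CPM (78.9 to 128), from 70 UMIs in 22 cells. Its level was 0.562 CPM in cardiomyocyte-like cells, a ratio of 180 (133 to 242). HOXB6 was at 23.1 CPM (16 UMIs, 242-fold, 119 to 478) and HOXB4 at 31.8 CPM (22 UMIs, 3.91-fold). HOXB2 (41.9 CPM) and HOXB3 (13 CPM) were detected, and neither was called different from cardiomyocyte-like cells. This was the one class in which groups 5 to 8 gave more HOX UMIs (58.8%) than groups 1 to 4 (41.2%). Of 5 HOX genes measured 3 were higher and 0 lower (median ratio 3.91), beside 17.8% of 11122 genes higher and 19% lower (median 0.834), or 14.2% and 24.4% with TMM scaling, which kept all 3 calls. In the 26 of these cells that had a hashtag, 3 genes were detected and 1 was called higher.

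Epicardial-like cells were the only class with a HOXD gene past the detection limit. In 253 cells led by PLAC9, SFRP2, TNNT1 and ALDH1A2 (which makes retinoic acid), summed HOX was 103 CPM (92.6 to 115). HOXD8 had 9 UMIs in 8 cells, 2.68 CPM (1.23 to 5.10), and 15 UMIs in the whole pool. HOXB7 was at 3.28 CPM (11 UMIs, 17.5-fold above cardiomyocyte-like cells), HOXB4 at 35.5 CPM (4.37-fold), HOXB3 at 16.1 CPM (1.71-fold) and HOXB2 at 34.9 CPM. HOXB1 was lower, with 2 UMIs (0.596 CPM). Of 5 HOX genes measured 3 were higher and 1 was lower (median 1.71), with 22.1% of 13048 genes higher and 20.5% lower (median 1.00), or 17.8% and 26.4% with TMM scaling, which kept all 4 calls.

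Epithelial-like cells held the most HOXA and HOXC as a share. These 770 cells, led by WFDC2, CLDN4, CLDN7 and CDH1 (the last 3 of them cell junction genes), had 9 HOX genes detected and summed HOX of 77.7 CPM (72.6 to 83.1), of which 9.88% was HOXA and 7.56% was HOXC. The same shares were 3.32% and 0.196% in cardiomyocyte-like cells, and 8.27% and 2.12% in stromal-like cells. By count, stromal-like cells had 117 HOXA UMIs and epithelial-like cells had 85, out of 8136006 and 11065621 UMIs in all. HOXC4 and HOXC5 each had 28 UMIs (2.53 CPM), 60.8-fold and 122-fold above cardiomyocyte-like cells, which had 10 and 5 UMIs of them. All 5 HOXC5 UMIs lay in cardiomyocyte cluster 9, and without that cluster the HOXC5 level was at least 180-fold higher, against a floor of 3 counts. Both genes were uneven over the 3 hashtags with at least 20 epithelial-like cells. HOXC4 ran from 0.489 CPM (Hashtag2) over a median of 0.683 to 5.56 CPM (Hashtag7). HOXC5 ran from 0 over a median of 0 to 6.68 CPM (Hashtag7). Hashtag7 gave 49 epithelial-like cells, Hashtag1 115 and Hashtag2 156. HOXA3 was at 3.43 CPM (8.78-fold) and HOXB5 at 2.62 CPM (4.66-fold). HOXB1 (1.72 CPM), HOXB2 (42.7 CPM), HOXB3 (6.87 CPM) and HOXB4 (7.32 CPM) were detected and not called. Of 9 HOX genes measured 5 were higher and 0 lower (median 2.96), with 30% of 13608 genes higher and 18.7% lower (median 1.13). With TMM scaling (18.9% of genes higher, 30.4% lower) 2 of the 5 kept the call: HOXC4 and HOXC5 came just under the minimum of 2 CPM at ratios of 47.9 and 95.9, and HOXB1 (0.588-fold) and HOXB3 (0.575-fold) were called lower. In hashtagged cells alone 3 were called higher. HOXC4 and HOXC5 have transcripts that start at the same base in RefSeq (chromosome 12, 54016888, plus strand). Their separate counts are uncertain where reads fit both genes.

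Endoderm-like cells were low in HOX RNA. These 362 cells, led by SERPINA1, AFP and APOA2 (liver and yolk sac secreted proteins), had 119 HOX UMIs in all, 17.3 CPM (14.3 to 20.7), and no HOX gene passed detection. HOXB2 was at 8.58 CPM, HOXB3 at 2.91 CPM and HOXB4 at 2.33 CPM, which are 3.56-fold, 3.24-fold and 3.49-fold under cardiomyocyte-like cells. Of 4 HOX genes measured 0 were higher and 3 lower (median ratio 0.297), where 23.7% of 13510 genes were higher and 16.6% lower (median 1.06). With TMM scaling (17.3% of genes higher, 24.1% lower) all 3 kept the call and HOXB1 (0.495-fold) was called lower too. The free RNA allowance for HOXB2 was 6.96 CPM, close to its level here.

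The share of cells with a HOX UMI was compared after every cell was thinned to 3000 UMIs, with shallower cells left out. By this measure 15.5% of 15520 thinned cardiomyocyte-like cells (434 left out) had one, against 3.88% of 335 endoderm-like cells (27 left out), the class with least HOX RNA. Their median depths before thinning were 12932 and 14510 UMIs. The share was 24.0% in LMO2/MECOM, 34.3% in stromal-like, 29.1% in epicardial-like, 17.3% in epithelial-like and 33.3% in endothelial-like cells (22 of 66). Genes of groups 5 to 8 were seen in 0.277% of thinned cardiomyocyte-like cells, 7.99% of stromal-like cells and 24.2% of endothelial-like cells (14.5 to 36.4). HOXB5 alone was seen in 19.7% of the endothelial-like cells (10.9 to 31.3). In stromal-like cells a HOX UMI of groups 5 to 8 was found in 15.2% of 223 cells with a UMI of groups 1 to 4 and in 4.77% of the 503 others. Without thinning, 42.3% of cardiomyocyte-like cells and 16.0% of endoderm-like cells had a HOX UMI.

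**Figure D2:**
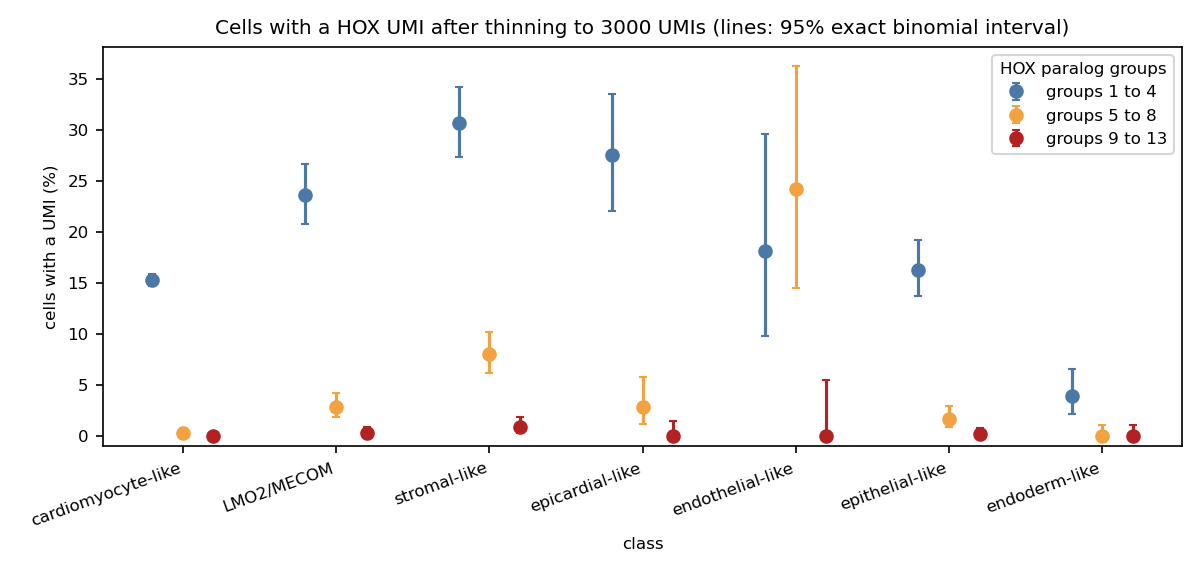
Share of cells of each class (percent) with at least 1 UMI from HOX paralog groups 1 to 4, 5 to 8 or 9 to 13, after thinning to 3000 UMIs per cell, with exact binomial intervals. Groups 5 to 8 reach 24.2% in endothelial-like cells and 7.99% in stromal-like cells, and groups 9 to 13 stay under 1% in every class, with 0 of 66 endothelial-like cells.

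The cardiomyocyte-like cells were split into 11 clusters (0 to 10). Summed HOX was 30.9 CPM in cluster 0, 68.0 in cluster 1, 46.5 in cluster 2, 39.3 in cluster 3, 130 in cluster 4, 40.9 in cluster 5, 36.9 in cluster 6, 52.1 in cluster 7, 49.1 in cluster 8, 55.8 in cluster 9 and 397 in cluster 10. Clusters 1, 4 and 10 were the highest, and their intervals (64.7 to 71.5, 125 to 136 and 368 to 428) did not reach those of any other cluster. The 3 differed in which HOX genes were high. Cluster 9, with a median of 34248 UMIs per cell, a hashtag in 17.3% of cells and COL3A1, LUM and WFDC2 among its leading genes, stands apart from the rest. Without cluster 9 the summed HOX level of cardiomyocyte-like cells was 52.9 CPM.

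Cluster 10 held most of the HOXB1 RNA. HOXB1 (chromosome 17, 48528526 to 48531001, minus strand), the front-most HOXB gene, known for giving the fourth segment of the hindbrain its identity and for its use in second heart field progenitors, was at 195 CPM (175 to 217) in the 189 cells of this cluster. It was at 0.897 CPM in the other cardiomyocyte-like cells, a ratio of 217 (182 to 259). Cluster 10 is 1.18% of the cardiomyocyte-like cells and held 339 of their 553 HOXB1 UMIs (61.3%). The next highest clusters were 4 (2.53 CPM) and 9 (1.99 CPM), and the other 8 lay between 0.312 and 1.33 CPM. Of cells thinned to 3000 UMIs, 43.5% of 186 cluster 10 cells had a HOXB1 UMI (36.3 to 51.0).

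In cluster 10 HOXB2 was at 125 CPM (4.19-fold above the other cardiomyocyte-like cells, 3.65 to 4.80), HOXB3 at 18.4 CPM (1.96-fold, 32 UMIs) and HOXB4 at 52.3 CPM (6.69-fold, 5.36 to 8.27). HOXB5 had 7 UMIs (4.02 CPM), and HOXA3 and HOXA4 had 0. All 4 HOX genes measured were higher and 0 lower (median 5.44), where 15.2% of 11831 genes were higher and 7.1% lower (median 1.08), or 8.45% and 13.7% with TMM scaling, which kept all 4 calls. The leading genes of the cluster included CRHBP, MYH11, KCNG1, PLAT and COL3A1 beside HOXB1 and CRABP1. Cardiomyocyte markers stood at 38962 CPM, near the 46533 CPM of the whole class. The stromal list summed to 476 CPM in cluster 10 and 92.9 CPM in the class, with 2 of 10 genes (DCN, LUM) at 0. The endothelial list summed to 163 CPM and 30.7 CPM, with 4 of 10 (PECAM1, TIE1, PLVAP, ERG) at 0, and the smooth muscle list to 2962 CPM and 1253 CPM. Their part in the HOX levels was not tested.

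Of the 103 hashtagged cells of cluster 10, 61 were from Hashtag7 and 20 from Hashtag6. HOXB1 was at 154 CPM (124 to 189) in the former and 164 CPM (106 to 242) in the latter, so it was high in both. Without the cells given to Hashtag7, HOXB1 in the 128 cells that remained was 216 CPM (190 to 244). These 128 include the cells of cluster 10 given to no hashtag, some of which may also be of Hashtag7.

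Cluster 4 was high in HOXB2, though its level was under that of cluster 10 (125 CPM). HOXB2, a hindbrain patterning gene, was at 94.7 CPM in its 1552 cells, against 25.8 CPM in the other cardiomyocyte-like cells, 3.67-fold higher (3.47 to 3.88). HOXB3 was at 15.0 CPM (1.67-fold) and HOXB4 at 15.3 CPM (2.02-fold). HOXB1, at 2.53 CPM, was not called. Of 4 HOX genes measured 3 were higher and 0 lower (median 1.84), beside 9.91% of 12833 genes higher and 7.01% lower (median 1.09). With TMM scaling (5.62% of genes higher, 10.4% lower) HOXB2 and HOXB4 kept the call and HOXB3 (1.48-fold) did not. The leading genes were LMOD2 (a thin filament protein), IRX1 and BRINP3. Over the 9 hashtags with at least 20 cells in cluster 4, HOXB2 ran from 69.5 CPM (Hashtag10) through a median of 84.5 to 120 CPM (Hashtag12), so every one of them lay above the 25.8 CPM of the other cells as a whole. By hashtag, cells outside clusters 1, 4 and 10 ran from 13.7 CPM (Hashtag9) over 25.6 to 47.1 CPM (Hashtag1). HOXB1 in the same 9 had a median of 0 and reached 46.6 CPM in Hashtag4, from 11 UMIs in 22 cells.

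Cluster 1 was the cluster with HOXA genes. Its 2461 cells were led by NR2F2 and NPPA, genes known from atrial cardiomyocytes, and the atrial marker list summed to 2843 CPM, against 601 CPM in the whole class. HOXA3 (chromosome 7, 27106184 to 27152581) was at 2.97 CPM there and 0.124 CPM in the other cardiomyocyte-like cells, 23.9-fold higher (15.1 to 38.9). Cluster 1 held 67 of the 94 HOXA3 UMIs and 60 of the 89 HOXA4 UMIs of the class (71.3% and 67.4%). HOXA4 was at 2.66 CPM (20.0-fold). HOXB4 was at 18.4 CPM (2.60-fold, 2.33 to 2.90), HOXB3 at 13.6 CPM (1.52-fold) and HOXB1 at 1.33 CPM (1.81-fold lower). The cells on the other side included cluster 10, which held 61.3% of the class's HOXB1 UMIs. In cardiomyocyte-like cells outside cluster 10, HOXB1 was at 0.897 CPM, under its level in cluster 1. HOXB2, at 24.2 CPM, was not called. Of 7 HOX genes measured 5 were higher and 1 was lower (median 2.60), where 10.9% of 12809 genes were higher and 7.41% lower (median 1.03). With TMM scaling (7.84% of genes higher, 10.6% lower) 3 of the 5 stayed called higher, and HOXB3 (1.40-fold) did not.

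The HOXA part of cluster 1 leaned on 1 hashtag. Hashtag15 gave 622 of the 1487 hashtagged cells, and 32 HOXA3 UMIs. Over the 10 hashtags with at least 20 cells in cluster 1, HOXA3 had a median of 0.533 CPM and ran from 0 to 17.0 CPM, the last from 3 UMIs in 21 cells of Hashtag12; Hashtag15 was at 6.32 CPM and Hashtag14 at 2.95 CPM. Without the cells given to Hashtag15, HOXA3 was at 2.00 CPM (1.39 to 2.78) and HOXA4 at 1.66 CPM (1.11 to 2.38). Both were then just under the 2 CPM minimum, and 2 HOX genes were called higher instead of 5. The 1839 cells left include the cells of cluster 1 given to no hashtag, some of which may also be of Hashtag15. HOXA3 and HOXA4 transcripts overlap neighbouring HOXA genes, so their counts are uncertain where reads fit more than 1 gene.

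**Figure D3:**
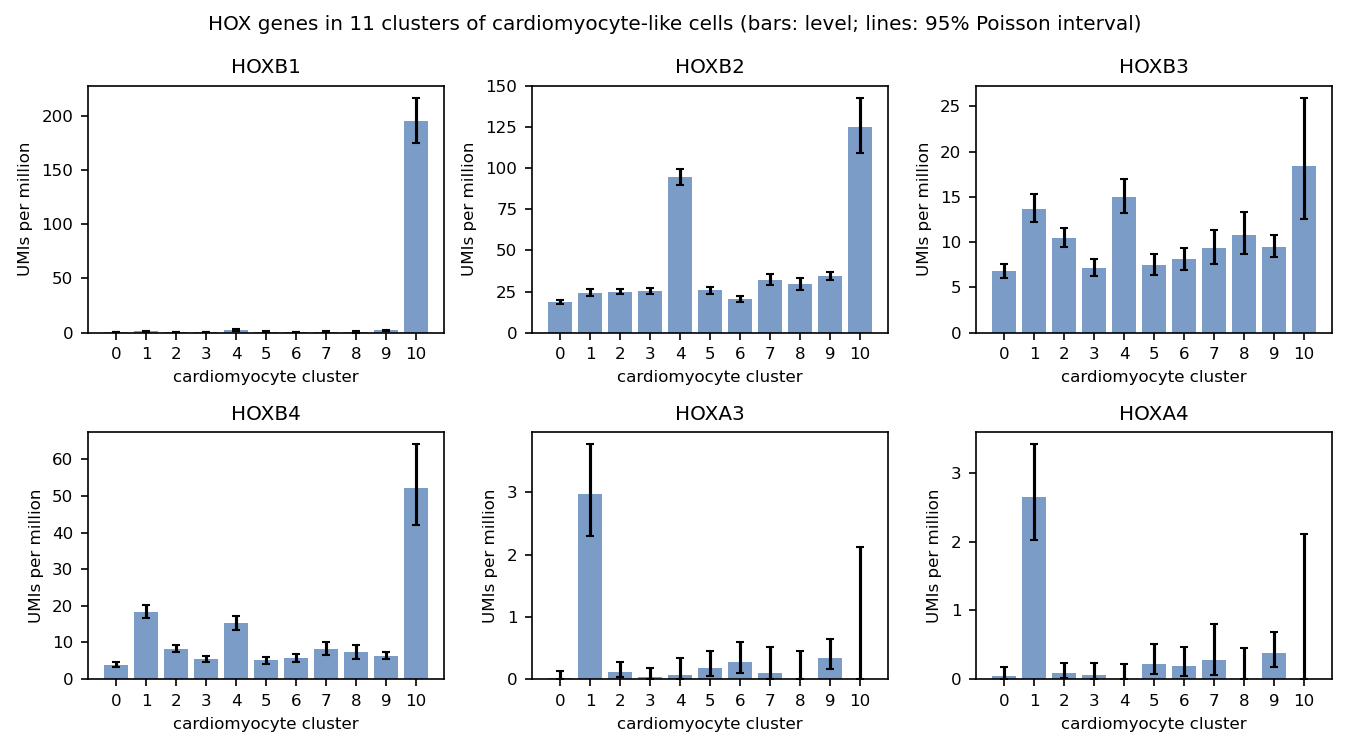
Levels (CPM, with exact Poisson intervals) of HOXB1, HOXB2, HOXB3, HOXB4, HOXA3 and HOXA4 in the 11 clusters of cardiomyocyte-like cells, each panel on its own linear axis from 0. HOXB1 is high in cluster 10 alone (195 CPM), HOXB2 in clusters 4 and 10 (94.7 and 125 CPM), and HOXA3 and HOXA4 in cluster 1.

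Grouping the same cells by a UMI of subtype genes gave a like order. HOXA3 was at 4.14 CPM in 246 cells with a UMI of SHOX2 (a sinus node factor), at 1.14 CPM in 3515 cells with NR2F2 and no SHOX2, and at 0.0609 CPM in 8872 cells with HEY2 (a ventricular factor) and neither of the others. Summed HOX was 80.0, 59.4 and 43.6 CPM in these groups. In the 3321 cells with none of the 3 it was 83.4 CPM, and HOXB1 was at 8.76 CPM. Median depths were 10910, 11570, 14860.5 and 8909 UMIs, and their part in the order was not tested.

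Summed HOX in cardiomyocyte-like cells also differed among hashtags. It ran from 28.3 CPM in Hashtag10, over a median of 51.2 CPM, to 83.4 CPM in Hashtag2. HOXB2 ran from 14.8 CPM (Hashtag9) over 27.3 to 64.5 CPM (Hashtag1), and Hashtag2 was next to the top with 63.0 CPM. HOXB4 ran from 3.24 CPM (Hashtag10) over 6.67 to 17.6 CPM (Hashtag15). HOXB1 ran from 0 (Hashtag1) over 1.12 to 8.23 CPM (Hashtag7), and HOXA3 from 0 over 0.0879 to 4.31 CPM (Hashtag15). The high HOXB2, HOXB1 and HOXA3 values therefore fell in different hashtags.

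The hashtags differed in which cardiomyocyte clusters they held. Cluster 4 made up 53.7% of the cardiomyocyte-like cells of Hashtag1, 60.3% of Hashtag2 and 23.8% of Hashtag7, and at most 7.94% of the others. Cluster 1 made up 73.5% of Hashtag15 and 56.1% of Hashtag14. Cluster 10 made up 5.54% of Hashtag7 and at most 2.46% of the others. In the cells outside clusters 1, 4 and 10, summed HOX ran from 25.3 CPM (Hashtag10) over 44.9 to 57.6 CPM (Hashtag6).

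**Figure D4:**
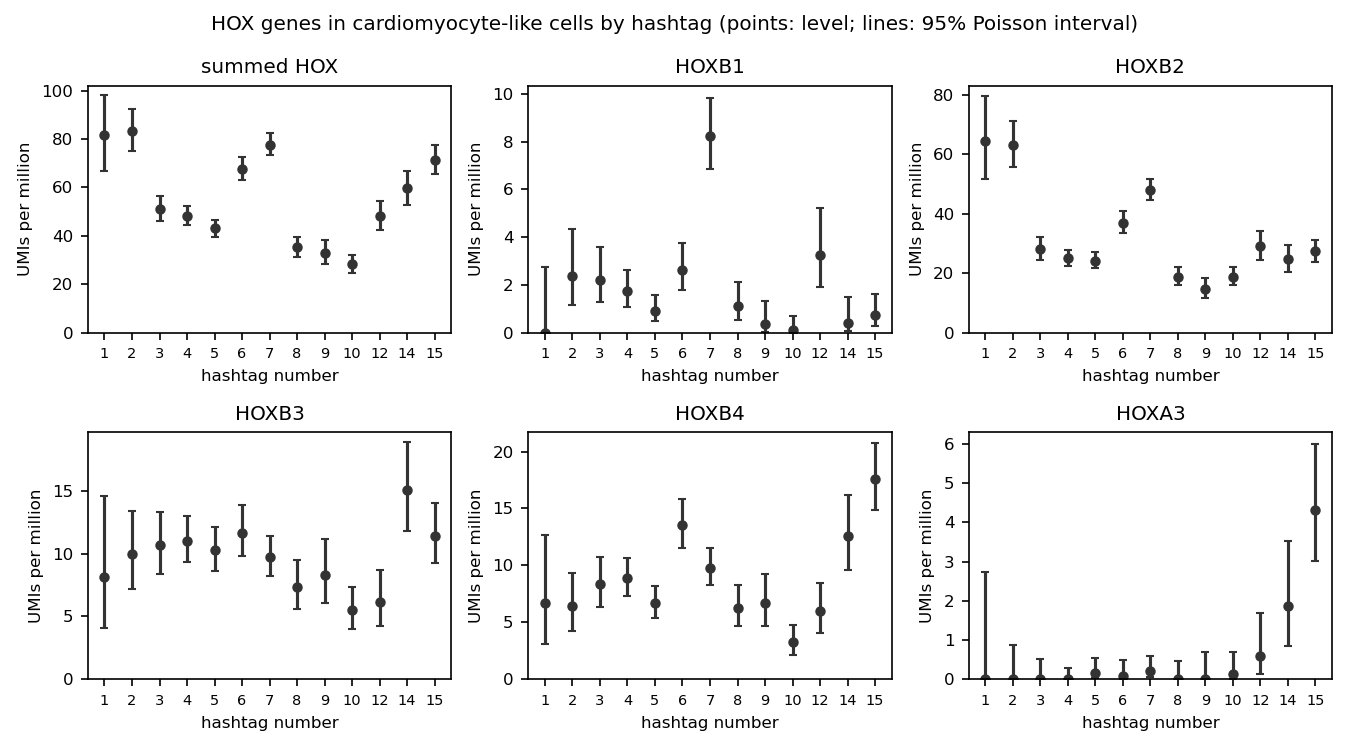
Summed HOX, HOXB1, HOXB2, HOXB3, HOXB4 and HOXA3 (CPM, with exact Poisson intervals) in the cardiomyocyte-like cells of each of the 13 hashtags. HOXB2 is highest in Hashtag1 and Hashtag2 (64.5 and 63.0 CPM), HOXB1 in Hashtag7 (8.23 CPM) and HOXA3 in Hashtag15 (4.31 CPM).

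In the other classes hashtags with at least 20 cells could be read as follows. Stromal-like cells ran from 65.3 CPM of summed HOX (Hashtag4) over 160 to 264 CPM (Hashtag12) in 8 hashtags. LMO2/MECOM cells lay between 99.0 and 134 CPM in 4. Single genes of the middle groups were less even. In LMO2/MECOM cells HOXB5 and HOXB6 were at 0 in Hashtag2, with medians of 4.49 and 3.33 CPM, and reached 15.2 CPM (Hashtag8) and 6.69 CPM (Hashtag1). In stromal-like cells HOXB5 ran from 0 (Hashtag4) over 10.1 to 45.4 CPM (Hashtag10). HOXB6 there ran from 0 (Hashtag15) over 8.84 to 28.9 CPM (Hashtag10), and HOXB7 from 0 (Hashtag15) over 3.26 to 20.8 CPM (Hashtag12). Epithelial-like cells were at 45.1 CPM in Hashtag1, 49.4 in Hashtag2 and 119 in Hashtag7. Endoderm-like cells lay between 4.12 and 5.84 CPM in 3 hashtags, from 2 to 4 UMIs each. That is under the 17.3 CPM (14.3 to 20.7) of the class, so most of its 119 HOX UMIs lay in other cells. Only 145 of its 362 cells had a hashtag. The difference was not tested.

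The stromal-like, LMO2/MECOM and epithelial-like classes were clustered again, into 8, 8 and 6 sub-clusters. The LMO2/MECOM class was the most uneven. Its sub-cluster 3 (96 cells led by DCN, NPNT, LUM and UPK3B) had summed HOX of 431 CPM (391 to 474), 4.69-fold above the rest of the class (4.16 to 5.27). There HOXB2 was at 149 CPM, HOXB4 at 118 CPM, HOXB5 and HOXB6 at 34.3 CPM each, HOXB1 at 17.2 CPM, HOXB7 at 13.1 CPM and HOXC4 at 8.08 CPM. Sub-cluster 7 (44 cells led by AKR1C3, TLX1, TCF21 and the retinoic acid-degrading enzyme CYP26A1) had 4 HOX UMIs, 9.0 CPM (2.45 to 23.0), 14.5-fold under the rest (5.64 to 53.2). Sub-cluster 6, led by AREG and ACTA2, was at 15.0 CPM. Sub-cluster 1, whose leading genes are contractile genes, was at 68.1 CPM with cardiomyocyte markers at 24637 CPM.

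In the stromal-like class 4 sub-clusters were high. Sub-cluster 3 (114 cells led by SST, HAPLN1, LUM, PITX1 and HAND1) had summed HOX of 327 CPM (295 to 362), 2.21-fold above the rest, sub-cluster 7 (27 proliferating cells) had 322, sub-cluster 2 (129 cells led by HGF, ROBO2 and LHX2) had 293 and sub-cluster 6 (34 cells led by IGFBP7, ACTG2 and GREM1) had 250. HOXA3 and HOXA4 were at 10.8 and 8.11 CPM in sub-cluster 2 and at 14 CPM each in sub-cluster 6 (6 UMIs each). HOXA13, a gene of the hindgut and distal limb, had 5 UMIs in sub-cluster 3 (4.34 CPM, 1.41 to 10.1) and 4 in sub-cluster 7 (10.5 CPM, 2.85 to 26.8), out of 19 in the pool, and HOXB8 had 7 UMIs in sub-cluster 3 (6.08 CPM). The 9 HOXA13 UMIs of the class lay in only 4 cells. Detection was called for whole classes only, and both HOXA13 lower bounds here are over its 1 CPM limit. The other 4 sub-clusters lay between 79.5 and 123 CPM. In those, cardiomyocyte markers stood at 5903 to 44814 CPM, and in the 4 high ones at 2871 to 4093 CPM. The part of cardiomyocyte RNA in the lower HOX levels was not tested.

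In the epithelial-like class sub-cluster 1 (222 cells led by CRH, SLN, GABRP and VTCN1) had summed HOX of 146 CPM (133 to 160), 2.90-fold above the rest. It held 21 of the 28 HOXC4 UMIs and 22 of the 28 HOXC5 UMIs of the class, at 6.68 and 7.0 CPM, with HOXB2 at 80.8 CPM and HOXA3 at 5.09 CPM. Sub-cluster 5 (37 cells) was at 139 CPM. Sub-cluster 0 (223 cells led by CGA, a hormone subunit of the placenta and pituitary) was at 17.5 CPM, 5.53-fold under the rest (4.12 to 7.59). Of its 137 hashtagged cells 84 were from Hashtag2.

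**Figure D5:**
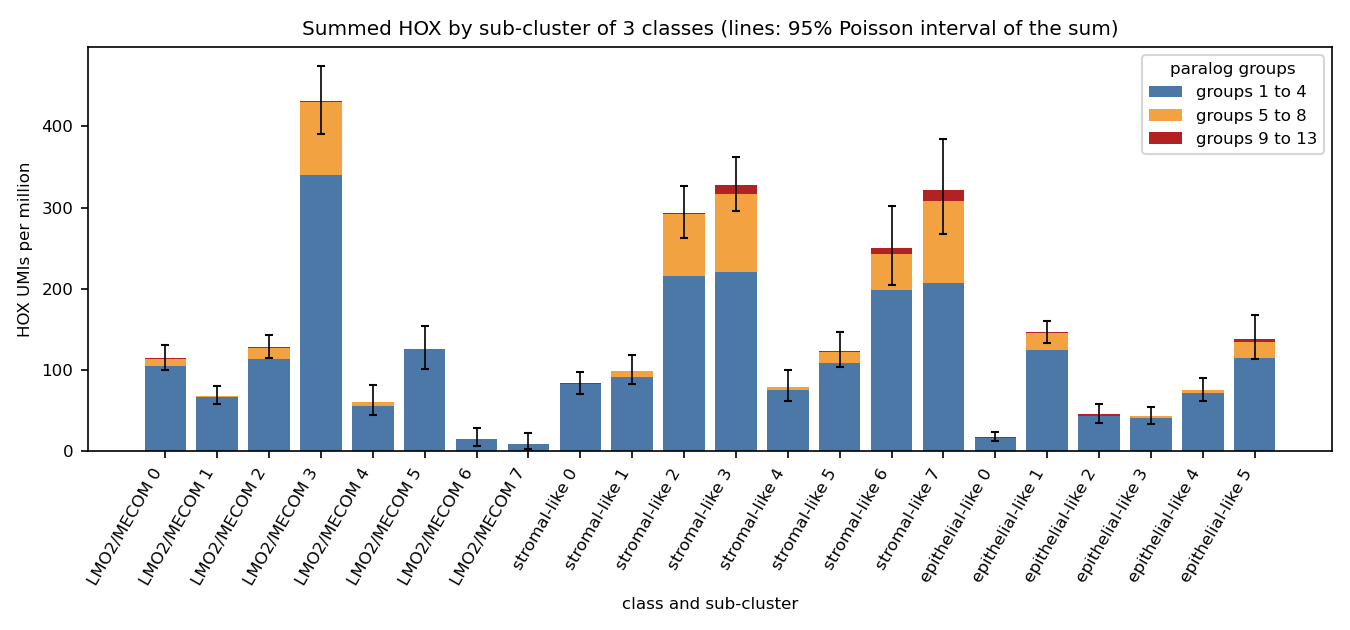
Summed HOX (CPM) in the sub-clusters of the LMO2/MECOM, stromal-like and epithelial-like classes, with bars split by paralog groups and exact Poisson intervals of the sum. LMO2/MECOM sub-cluster 3 is the tallest (431 CPM), and the largest parts from groups 5 to 8 lie in it and in stromal-like sub-clusters 2, 3, 6 and 7.

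The RNAs antisense to the clusters followed in part. HOXB-AS1, a non-coding RNA across from HOXB2 and HOXB3, was at 56.4 CPM in cardiomyocyte-like cells, at 163 CPM in cluster 4 (3.38-fold above the other cardiomyocyte-like cells) and at 215 CPM in cluster 10 (3.90-fold). It was lower than in cardiomyocyte-like cells in all 6 other classes, from 35.1 CPM in LMO2/MECOM (1.60-fold) to 5.78 CPM (4 UMIs) in endothelial-like cells (9.74-fold lower, 3.8 to 35.8). HOTAIRM1, at the front end of the HOXA cluster, was at 15.1 CPM in cluster 1 (5.31-fold), 13.1 CPM in epithelial-like (3.28-fold) and 11.3 CPM in stromal-like cells (2.83-fold). HOXD-AS2 had 12 UMIs in epicardial-like cells (3.58 CPM), the class with HOXD8. HOXB-AS3 (2.46 CPM) and HOXA-AS2 (2.70 CPM) were higher in stromal-like cells, the former not with TMM scaling. Whether the counting used strand is not given in the sources used here, and without strand the reads of HOXB-AS1 and HOXB2 or HOXB3 cannot be told apart.

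Some TALE partners of HOX proteins were called in these groups. Of 9 genes on the list, 5 of 8 measured were higher and 0 lower in cluster 4 (9.91% and 7.01% of all genes), 4 of 7 were higher and 0 lower in cluster 10 (15.2% and 7.1% of all genes), and 2 of 8 were higher and 1 lower in cluster 1 (10.9% and 7.41%). PBX3 was at 328 CPM in cluster 10 (4.32-fold) and 197 CPM in cluster 4 (2.85-fold), MEIS3 at 70.6 CPM in cluster 10 (6.65-fold) and MEIS2 at 576 CPM in cluster 4 (1.92-fold). MEIS1 was at 50.5 CPM in cluster 4 (1.78-fold). Between classes, 5 of 9 were higher and 0 lower in LMO2/MECOM (27.5% and 12.4% of all genes), 3 of 8 and 0 in stromal-like (28.1% and 12.4%), 3 of 8 and 2 in epicardial-like (22.1% and 20.5%), 0 of 7 and 3 in endothelial-like (17.8% and 19%), 3 of 9 and 1 in epithelial-like (30% and 18.7%), and 2 of 9 and 2 in endoderm-like cells (23.7% and 16.6%). The counts higher in stromal-like, epithelial-like and endoderm-like cells are within 1 gene of the share of all genes. With TMM scaling the counts higher were 4 in LMO2/MECOM, 1 in epithelial-like cells and 3 in cluster 10. MEIS3 was at 75.2 CPM in stromal-like (6.80-fold) and 66.2 CPM in epicardial-like cells (5.99-fold). MEIS1 was at 79.6 CPM in LMO2/MECOM (2.67-fold) and 10.4 CPM in epicardial-like cells (2.86-fold lower).

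Of 17 retinoid signalling genes, 3 of 12 measured were higher and 2 lower in cluster 10, 3 of 13 and 1 in cluster 4, and 0 of 13 and 5 in cluster 1. Over all genes the shares higher and lower were those given above for the same comparisons, 15.2% and 7.1% in cluster 10, 9.91% and 7.01% in cluster 4, and 10.9% and 7.41% in cluster 1. With TMM scaling 1 of the 3 higher in cluster 4 kept the call. CRABP1 and CRABP2, which carry retinoic acid in the cell, were among those higher in cluster 10: CRABP1 was at 182 CPM (104-fold) and CRABP2 at 1218 CPM (5.11-fold). In cluster 4 RARB, a receptor gene that retinoic acid induces, was at 26.2 CPM (2.20-fold). In cluster 1 CRABP1 (1.11 CPM, 2.94-fold) and CYP26A1 (1.06 CPM, 3.34-fold) were lower. In the classes the counts were 7 of 15 higher and 3 lower in LMO2/MECOM, 7 of 14 and 2 in stromal-like, 4 of 14 and 3 in epicardial-like, 2 of 12 and 2 in endothelial-like, 6 of 15 and 4 in epithelial-like, and 5 of 14 and 6 in endoderm-like cells. The shares of all genes higher and lower were 27.5% and 12.4% in LMO2/MECOM and 28.1% and 12.4% in stromal-like cells. They were 30% and 18.7% in epithelial-like and 23.7% and 16.6% in endoderm-like cells. In epicardial-like (22.1% and 20.5%), endothelial-like (17.8% and 19%) and epithelial-like cells the counts are near these shares. With TMM scaling 6 of 7 higher calls stayed in LMO2/MECOM and in stromal-like cells, and 5 of 6 in epithelial-like cells. The other classes kept all of theirs. CRABP1 was at 74.9 CPM in LMO2/MECOM cells (24.5-fold), and ALDH1A1, which makes retinoic acid, at 121 CPM in endoderm-like cells (343-fold), the class with least HOX RNA.

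Few regulators of HOX chromatin were called in the cardiomyocyte clusters. All 20 Polycomb and Trithorax genes were measured, and 0 were called in cluster 4, 2 higher and 1 lower in cluster 1, and 4 higher and 2 lower in cluster 10. In the classes 1 to 6 were higher and 0 or 1 lower. These counts are near or under the share of all genes called higher (15.2% in cluster 10, 27.5% in LMO2/MECOM), and with TMM scaling 1 was higher in cluster 10 and 1 in LMO2/MECOM. KMT2A, a Trithorax methyltransferase known to keep HOX genes active, was at 130 CPM in LMO2/MECOM (1.94-fold) and 123 CPM in stromal-like cells (1.84-fold, or 1.44-fold and not called with TMM scaling), and EZH2, the Polycomb methyltransferase, was lower in cluster 1 (16.2 CPM, 1.66-fold) and in cluster 10 (13.2 CPM, 1.97-fold). Caudal (CDX) factors drive HOX genes of the trunk and gut. Of 6 caudal and ParaHox factors 1 was measured: PDX1, which is not a caudal factor, at 13.8 CPM in endoderm-like cells. CDX2 was at 0 to 1.36 CPM over all classes, highest in epithelial-like cells. Among 11 inducers and partners of the rear HOX genes, 2 or 3 were measured per comparison: FGF8 was higher in LMO2/MECOM (9.13 CPM, 7.44-fold) and epithelial-like cells (5.15 CPM, 4.2-fold), MNX1 was higher in endoderm-like cells (2.33 CPM), and GDF11 was lower in stromal-like, epicardial-like, endothelial-like and epithelial-like cells.

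Over 17 groups of cells (6 classes and the 11 cardiomyocyte clusters) the levels of 11365 genes were compared with summed HOX on a log scale. The groups share 1 library and differ in depth and size, so r is a description. Among the 10 genes outside the lists with the highest r were RAB7A (0.90), IDS (0.90), TIMP1 (0.90), LINC-PINT (0.89), PIK3IP1 (0.89), TMEM248 (0.88), FBRS (0.87) and C1orf54 (0.87). Among the listed genes RNF2, a Polycomb gene (0.87), MEIS3 (0.79) and PBX3 (0.72) were at the top and RXRA (-0.56) and PDX1 (-0.44) near the bottom.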

How the data were processed

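One pool of H9-derived cells gave 2 libraries, gene expression and hashtags. The raw UMI counts the authors deposited form 1 matrix of 36601 genes, 13 hashtags and 24038 barcodes, made with Cell Ranger 4.0.0 per the file headers, on hg38 per the submitters' processing notes. No source used here gives the annotation release, strand setting or cell calling.

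A barcode was retained (21623 were) with 500 genes or more, 1000 UMIs or more and no more than 25% of UMIs from mitochondrial genes. Scrublet (scanpy 1.11.5) marked 989 (4.57%, against an expected 19.2%), which were left out; the 20634 cells will still hold doublets. The 2000 most variable genes, without HOX, listed, mitochondrial and ribosomal genes, gave 30 principal components, 15-neighbour graphs and Leiden clusters (leidenalg 0.10.2, resolution 0.6), 14 in all. Classes were named from 20 marker lists; the cells of the cardiomyocyte-like clusters were joined and reclustered, as was each other class of 500 cells or more. Hashtag assignment required 1 hashtag holding at least 70% of at least 20 hashtag UMIs. Summed counts were expressed as CPM with exact Poisson intervals, and ratios with exact conditional binomial intervals (scipy 1.17.1). The calculation was tested on simulated data. No p-value was computed.

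All 39 HOX identifiers matched GENCODE 29, the source of gene positions. The HOX genes, the 6 other lists (81 genes, 1 absent by symbol) and the comparisons were chosen with earlier results of these data known. All HOX genes were named; from other lists up to 4 genes per comparison with the largest called ratios were eligible, with MEIS1, MEIS2, CRABP1, RARB and CDX2 throughout, and the 10 genes most like summed HOX. Some genes that these rules name are not reported here. Alternatives were other barcode filters, doublets kept, other resolutions, other minimums, trimmed mean (TMM) scaling, hashtagged cells only, leaving out the top hashtag and other thinning depths. Leaving out the top hashtag kept the cells given to no hashtag.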

Additional observations from a re-analysis of the deposited data

How the results depend on the processing

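Of 56 results recomputed under the alternatives, 513 values were obtained, and 439 stayed the same by the rule for their kind. A count had to stay within 1.5-fold, a level or share within the main interval, and a ratio had to keep its call. Another 61 counts, levels or shares moved, 13 ratio calls fell below a threshold with the same direction, and 0 reversed. Only the 23 ratio results could reverse. They cover chosen genes and sub-clusters, so calls that other genes lost or gained are not among them. Of 228 alternative ratios, 215 kept the call. With no minimum, HOX genes called higher numbered 13 in LMO2/MECOM, 18 in stromal-like, 11 in epicardial-like, 5 in endothelial-like, 9 in epithelial-like, 1 in endoderm-like cells and 10 in cluster 1; at 10 CPM they numbered 3 in LMO2/MECOM, 5 in stromal-like and 0 in epithelial-like cells and 2 in cluster 1. With TMM scaling, whose factors moved the median by 0.12 to 0.36 (log2), they numbered 2 in epithelial-like cells and 3 in cluster 1, and single calls of HOXB2 or HOXB3 were lost in LMO2/MECOM, stromal-like and cluster 4 cells. In hashtagged cells alone they numbered 1 in epicardial-like, 1 in endothelial-like (3 detected) and 3 in epithelial-like cells. A detection limit of 0.5 CPM left 1 gene in endoderm-like cells, and 2 CPM left 3 in epicardial-like and 4 in epithelial-like cells. In cluster 1 the count was 3 with no barcode filter, 2 with doublets kept, 3 at resolution 0.4 and 2 without Hashtag15; HOXA4 there fell to 11.1-fold with doublets kept. Endoderm-like cells had 1 gene detected with doublets kept and 2 at resolution 0.4. Except where the alternative changed the cells or genes tested by construction, the cause was not tested. Cluster 10 had no counterpart with no filter or at resolution 0.4, so it has no value there.

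The lowest summed HOX over hashtags was 20.2 CPM when 90% of hashtag UMIs were required. Shares of cells with a HOX UMI follow the depth: unthinned they were 42.3% in cardiomyocyte-like, 62.7% in stromal-like, 16.0% in endoderm-like and 88.4% in cluster 10 cells, and at 6000 UMIs 25.4%, 53.9%, 6.60% and 79.2%. The alternatives without the top hashtag of a cluster or sub-cluster and without cluster 9 were chosen after seeing the data. No paired analysis was possible because the pool has no replicates. Levels near 1 to 3 CPM rest on few UMIs in the small classes, so absence of the rear HOX genes from a class could be shown only down to the limits given. HOXA13 had UMIs in 4 stromal-like cells.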

Other observations

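The 1553 cells of low depth (median 1872 UMIs and 13.2% mitochondrial UMIs, with the nuclear RNAs MALAT1 and NEAT1 among its leading genes) held 251 HOX UMIs, 63.3 CPM. HOXB3 was at 24.2 CPM (19.6 to 29.6) in them and 9.42 CPM in cardiomyocyte-like cells, whereas HOXB2 was at 22.9 CPM (18.5 to 28.2) and 30.6 CPM. The difference was not tested.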
